A study of Homo sapiens with 6 samples.

Results

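The imprinted region 15q11 to q13 was followed through 8 of its genes, taken by symbol from the 11363 genes of the deposited table and ordered by position on chromosome 15: NIPA1, NIPA2, CYFIP1, TUBGCP5, SNRPN, SNHG14, UBE3A and HERC2. NOMO-1, a human acute monocytic leukaemia line, was profiled by stranded total RNA sequencing after ribosomal RNA removal, as 3 wild-type (WT) libraries of the parental cells and 3 libraries (MSLN-KO) in which MSLN, the gene for the surface protein mesothelin, was knocked out. The labels give no treatment or time point, and do not say how the knockout was made, whether the MSLN-KO cells are 1 clone or a pool, or whether the 3 libraries of a genotype come from separate cultures. The spread between libraries may therefore be technical, and a property of a single clone cannot be told apart from an effect of the genotype.

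The genes were chosen by the measured difference between MSLN-KO and WT in these same 6 libraries, so their levels and differences are given here as a description, with no test. SNRPN and SNHG14 were higher in MSLN-KO, by 4.75-fold and 9.94-fold in CPM, read counts scaled to the size of the library. The other 6 genes, UBE3A among them, were lower, at 43.7% to 70.4% of their WT level. In none of the 8 genes did the ranges of the 3 WT and the 3 MSLN-KO libraries overlap. Across all 11363 genes, 54.7% had groups that did not overlap, 26.6% with every MSLN-KO library above every WT library and 28.1% with every MSLN-KO library below.

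Genomic imprinting marks the copies of a gene inherited from the mother and the father differently, mostly by DNA methylation set in the germ line, so that only one copy is read. In 15q11 to q13 the CpG island at the start of the SNURF-SNRPN transcript, part of the imprinting centre, is methylated on the maternal copy, and SNRPN and the long noncoding transcript downstream of it, SNHG14, are read from the paternal copy. SNHG14 is the host of the SNORD116 and SNORD115 small nucleolar RNAs, and in neurons its far end runs antisense through UBE3A and silences the paternal UBE3A copy, whereas most other tissues read both copies of UBE3A. NIPA1, NIPA2, CYFIP1 and TUBGCP5, on the centromeric side, and HERC2, on the telomeric side, are read from both copies. Loss of the paternal genes is known from Prader-Willi syndrome and loss of maternal UBE3A from Angelman syndrome.

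The start regions of SNHG14, SNRPN and UBE3A are shown for their CpG dinucleotides, since CpG methylation at the SNURF-SNRPN start is the mark by which the region's imprint is known and the UBE3A start serves as the contrast. Methylation itself was not measured here. RefSeq (GRCh38.p14) gives 16 start sites for the 8 genes, all 8 of which matched by symbol. The sequences below run 5′ to 3′ up to the start or to the first annotated exon, with each CpG in capitals. The annotations disagree on SNHG14: RefSeq starts it just before the SNRPN start of GENCODE release 29 (chr15:24823637), whereas GENCODE release 29, used here for the gene spans, starts it at the far end of SNRPN (chr15:24978583), so the first window below may equally be called a start of SNRPN.
SNHG14 as RefSeq names it, chr15:24823358-24823607, plus strand: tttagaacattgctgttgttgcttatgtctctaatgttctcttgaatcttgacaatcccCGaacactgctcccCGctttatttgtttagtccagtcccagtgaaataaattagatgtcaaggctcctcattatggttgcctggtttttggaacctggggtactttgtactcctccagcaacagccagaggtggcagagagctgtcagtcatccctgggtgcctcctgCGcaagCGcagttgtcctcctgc
SNRPN upstream start, chr15:24856321-24856550, plus strand: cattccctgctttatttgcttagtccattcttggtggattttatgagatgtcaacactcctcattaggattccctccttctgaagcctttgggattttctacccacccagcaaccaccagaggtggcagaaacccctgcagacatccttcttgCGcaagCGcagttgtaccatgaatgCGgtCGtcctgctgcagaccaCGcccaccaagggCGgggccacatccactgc
SNRPN downstream start, chr15:24954737-24954926, plus strand: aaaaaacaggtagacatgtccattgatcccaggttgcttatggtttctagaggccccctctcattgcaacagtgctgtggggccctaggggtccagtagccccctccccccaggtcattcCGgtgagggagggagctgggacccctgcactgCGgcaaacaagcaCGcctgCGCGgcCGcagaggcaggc
UBE3A, chr15:25439057-25439306, minus strand: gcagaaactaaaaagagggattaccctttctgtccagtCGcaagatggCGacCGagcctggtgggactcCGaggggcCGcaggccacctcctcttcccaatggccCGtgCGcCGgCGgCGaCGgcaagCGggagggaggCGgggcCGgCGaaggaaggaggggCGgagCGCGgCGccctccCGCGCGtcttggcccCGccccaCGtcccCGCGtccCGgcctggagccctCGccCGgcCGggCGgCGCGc

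Over the whole 250 bases before the start, the RefSeq SNHG14 window held 4 CpG, the upstream SNRPN window 6, the downstream SNRPN window 12 and the UBE3A window 33. The windows of the other SNRPN starts, not shown, held 1 and 6. Over the 35116 windows of 27305 genes in the same RefSeq table the median was 11 CpG, with quartiles of 3 and 23. The windows before the starts of SNHG14 and of upstream SNRPN therefore lay below the median. The downstream SNRPN window was close to it, and that of UBE3A lay above the upper quartile. Of the 12 CpG of the downstream SNRPN window, 6 are in the printed stretch and the others in annotated exon bases. Bases after a start were not counted here, and which window adjoins the methylated SNURF-SNRPN island was not determined, so these counts do not describe that island. The genes read from both copies also had starts rich in CpG, with 29 in the windows of NIPA2, TUBGCP5 and HERC2 and 30 in that of NIPA1, while the 4 CYFIP1 windows held from 6 to 28. The SNHG14 window and the upstream SNRPN window shared a run of 17 bases, tgCGcaagCGcagttgt, the longest run common to windows that RefSeq gives to different genes among SNHG14, SNRPN and UBE3A. That run holds the motif GCGCANGCGC, the core recognised by the factor NRF1, which was found on either strand within 300 bases (250 before and 50 after the start) at 5 of the 16 starts and in 5.78% of all windows. AAGATGGC, the core recognised by YY1, was found at 3 of the 16 starts, 1 of SNRPN and 2 of UBE3A, whose windows overlap, and in 2.89% of all windows. Both motifs were chosen after the sequences had been seen. Their letters were copied from the SNHG14 and UBE3A windows, with N standing for any base. Matches there, in the run of 17 bases shared with SNRPN and in the overlapping UBE3A window were therefore fixed in advance. The counts at these starts are thus no test against the shares of all windows, and a match describes the letters only.

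SNHG14 (ENSG00000224078.15), the long noncoding host transcript, was placed at chr15:24978583-25419462 on the plus strand in GENCODE release 29 (GRCh38), and its span there also holds 48 SNORD115 and 30 SNORD116 entries. Its level was 9.59, 12.3 and 8.21 CPM in the 3 WT libraries and 94.8, 96.9 and 107 CPM in the 3 MSLN-KO libraries. Every MSLN-KO library was far above every WT library, and the WT libraries were the more scattered of the groups, with a coefficient of variation of 20.6% against 6.67%. The means were 10.02 ± 2.06 CPM (SD, n = 3) and 99.6 ± 6.64 CPM (SD, n = 3), a difference of 3.20 (SE 0.11) on the log2(CPM + 1) scale. On that scale, which is used for all log2 changes here and understates the change of genes near 1 CPM, 43 of all 11363 genes (0.378%) differed by 3 or more upwards, and SNHG14 stood 36th from the top.

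SNRPN (ENSG00000128739.23), which encodes SmN, a tissue-restricted form of the SmB proteins of the spliceosome's core ring, spans chr15:24823637-24978723 on the plus strand. Its level was 8.53, 9.17 and 7.84 CPM across the WT libraries and 40.6, 41.1 and 39.5 CPM across the MSLN-KO libraries. The libraries of each genotype lay close together and the groups were well apart. The means were 8.51 ± 0.668 CPM and 40.4 ± 0.804 CPM (SD, n = 3 each), with a log2 change of 2.12 (SE 0.08). Of all genes, 84 (0.739%) had a change of 2 or more, and SNRPN stood 80th from the top. SNRPN was thus detected at a low level in WT rather than listed at 0, as was SNHG14.

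Another listed transcript of this stretch was higher in MSLN-KO. ENSG00000261069, an unnamed long intergenic RNA at chr15:25087661-25088896 on the plus strand, lies wholly within annotated exon sequence of SNHG14 on the same strand. How reads in exon bases of both were assigned is not given in the sources used here, so the values may share reads or split them. It was at 0.898, 0.735 and 0.506 CPM across the WT libraries and at 14.99, 16.5 and 16.9 CPM across the MSLN-KO libraries. Each MSLN-KO library was above every WT library, and the log2 change was 3.33. Every listed gene had at least 3 libraries at 4.90 CPM or more. ENSG00000261069 was therefore listed only through its MSLN-KO libraries, and its direction adds nothing to that of SNHG14. Set against the SNHG14 level of the same library, the ENSG00000261069 level was 7.17% ± 1.90 in WT and 16.2% ± 0.692 in MSLN-KO (SD, n = 3 each). This ratio was higher in all 3 MSLN-KO libraries, at 15.8% to 17.0%, than in any WT library, at 5.99% to 9.36%.

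UBE3A (ENSG00000114062.22), a HECT-type E3 ubiquitin ligase, lies at chr15:25333728-25439056 on the minus strand, tail to tail with SNHG14. Its level was 136, 149.2 and 136 CPM across the WT libraries and 98.4, 95.6 and 103 CPM across the MSLN-KO libraries. All MSLN-KO libraries were below all WT libraries, with means of 140.5 ± 7.58 CPM and 98.9 ± 3.49 CPM (SD, n = 3 each). UBE3A stood at 70.4% of WT, a log2 change of -0.50 (SE 0.06), the smallest difference among the 8 genes. The annotated spans of SNHG14 and UBE3A share 85735 bases on opposite strands, but their exons share only 198 bases, 1.55% of the exon bases of UBE3A. The library kit keeps strand, and whether the counting used it is not given in the sources used here, so reads in those 198 bases cannot be assigned to either gene with certainty.

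HERC2 (ENSG00000128731.18), a giant HECT-domain ubiquitin ligase that binds UBE3A, spans chr15:28111040-28322152 on the minus strand. It was at 117, 131 and 124 CPM across the WT libraries and at 64.6, 72.3 and 64.0 CPM across the MSLN-KO libraries. The groups did not overlap. The means were 124 ± 6.76 CPM and 67.0 ± 4.63 CPM (SD, n = 3 each), 54.0% of WT and a log2 change of -0.88 (SE 0.06). Partial copies of HERC2 lie on the same chromosome, and reads shared with them may be split in a way that the table does not show.

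The 4 genes on the centromeric side are neighbours within a stretch of chr15:22773063-23039673, and the next listed gene outwards, SNRPN, begins 1784 kb beyond TUBGCP5. CYFIP1 (ENSG00000273749.5, chr15:22867052-22981063, minus strand), a subunit of the WAVE complex that drives branched actin assembly and a partner of FMRP in repressing translation, was at 103, 112 and 106 CPM across the WT libraries and at 46.0, 47.4 and 46.7 CPM across the MSLN-KO libraries. The MSLN-KO libraries were nearly alike and all were well under the WT libraries. CYFIP1 had the lowest share of its WT level among the 8 genes, 43.7%, from 107 ± 4.63 to 46.7 ± 0.718 CPM (SD, n = 3 each), a log2 change of -1.18 (SE 0.06). Of all genes, 172 (1.51%) had a change of -1 or below.

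NIPA1 (ENSG00000170113.16, chr15:22773063-22829791, plus strand), a magnesium transporter, was at 50.3, 61.6 and 59.0 CPM across the WT libraries and at 34.7, 32.9 and 30.4 CPM across the MSLN-KO libraries. All MSLN-KO libraries were lower, and the WT libraries were the more scattered. The mean was 57.0 ± 5.95 CPM for WT and 32.7 ± 2.15 CPM for MSLN-KO (SD, n = 3 each), 57.4% of WT, with a log2 change of -0.78 (SE 0.08). NIPA2 (ENSG00000140157.16, chr15:22838641-22868384, plus strand), its paralog, was at 88.0, 82.9 and 87.7 CPM across the WT libraries and at 56.9, 56.9 and 57.3 CPM across the MSLN-KO libraries. The groups were apart and the MSLN-KO libraries agreed to within 1 CPM. NIPA2 stood at 66.2% of WT, from 86.2 ± 2.88 to 57.0 ± 0.226 CPM (SD, n = 3 each), a log2 change of -0.59 (SE 0.05). NIPA2 and CYFIP1 end in each other on opposite strands, sharing 1333 exon bases that make up 38.0% of the exon bases of NIPA2 and 12.8% of those of CYFIP1, so part of either value may belong to the other gene.

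TUBGCP5 (ENSG00000275835.5, chr15:22983192-23039673, minus strand), a scaffold subunit of the gamma-tubulin ring complex that nucleates microtubules, was the least abundant of the 4 in CPM. Its level was 27.4, 25.1 and 28.8 CPM across the WT libraries and 16.8, 17.5 and 18.3 CPM across the MSLN-KO libraries. The groups did not overlap, with means of 27.1 ± 1.89 and 17.6 ± 0.765 CPM (SD, n = 3 each). TUBGCP5 stood at 64.8% of WT, a log2 change of -0.60 (SE 0.08).

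**Figure D1:**
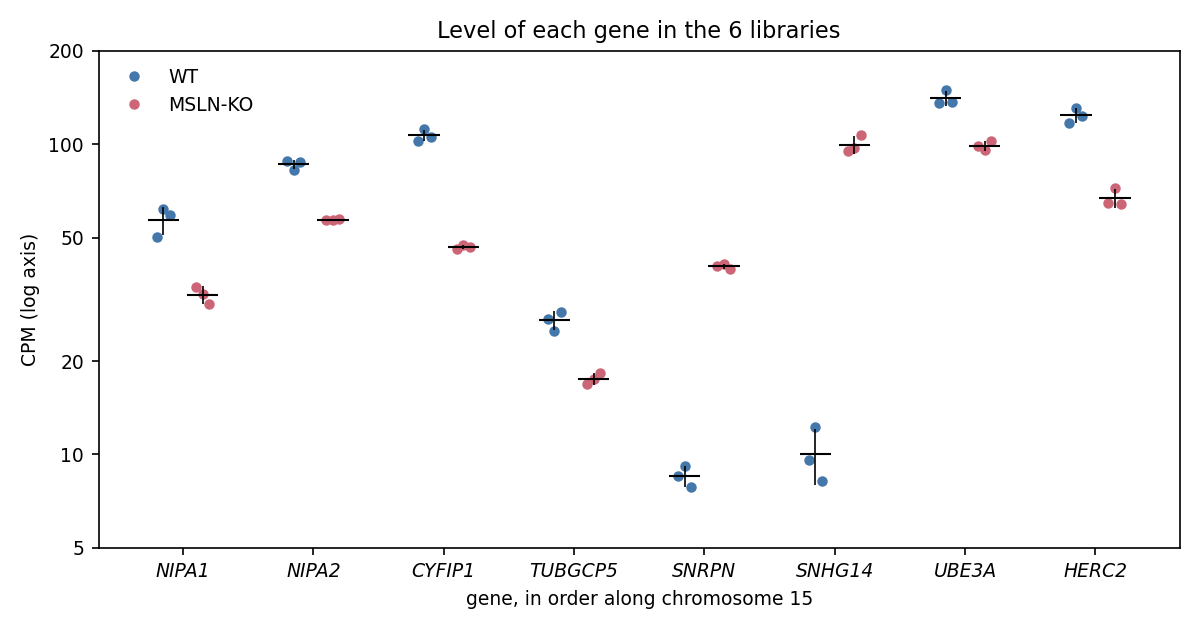
CPM of the 8 genes in the 3 WT and 3 MSLN-KO libraries on a log axis, in order along chromosome 15; each point is 1 library. SNRPN and SNHG14 are near 10 CPM in WT and at 39.5 CPM or more in MSLN-KO, and the MSLN-KO points of the other 6 genes lie under the WT points.

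Levels of different genes were compared as CPM per kb of annotated exon. In WT the order from the top was NIPA2 (24.6 CPM per kb), UBE3A (10.96), CYFIP1 (10.2), NIPA1 (6.55), HERC2 (6.15), TUBGCP5 (4.18), SNRPN (2.49) and SNHG14 (0.231). The ranges of UBE3A and CYFIP1 overlapped, as did those of NIPA1 and HERC2. All other neighbours in the WT order were apart in every library. In MSLN-KO, SNRPN took the second place at 11.8 CPM per kb, between NIPA2 (16.3) and UBE3A (7.72), followed by CYFIP1 (4.48), NIPA1 (3.76), HERC2 (3.32), TUBGCP5 (2.71) and SNHG14 (2.30). NIPA1 and HERC2 again overlapped, and no other neighbours did. SNHG14 remained the lowest of the 8 on this scale in both genotypes; its annotated exons add up to 43.3 kb.

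Ratios within a library do not depend on the scaling between libraries. The ratio of SNHG14 to UBE3A in CPM was 0.0706, 0.0822 and 0.0603 in WT and 0.963, 1.01 and 1.05 in MSLN-KO. SNHG14 was thus a small fraction of UBE3A in every WT library and close to equal to it in every MSLN-KO library, with means of 0.0710 ± 0.0110 and 1.01 ± 0.0416 (SD, n = 3 each), a 14.2-fold difference. The ratio of SNRPN to UBE3A went from 0.0606 ± 0.00275 to 0.409 ± 0.0224, a 6.76-fold difference. The paternally expressed genes also differed from each other, since the ratio of SNHG14 to SNRPN was 1.12, 1.34 and 1.05 in WT and 2.33, 2.36 and 2.71 in MSLN-KO. This ratio was higher in each MSLN-KO library than in any WT library, by 2.11-fold between the means. SNRPB encodes the widely expressed SmB proteins, and SNRPN was 5.49% ± 0.823 of SNRPB in WT and 28.8% ± 0.370 in MSLN-KO (SD, n = 3 each). SNRPN and SNRPB have similar coding sequences, so reads that match both may have been left out or split.

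**Figure D2:**
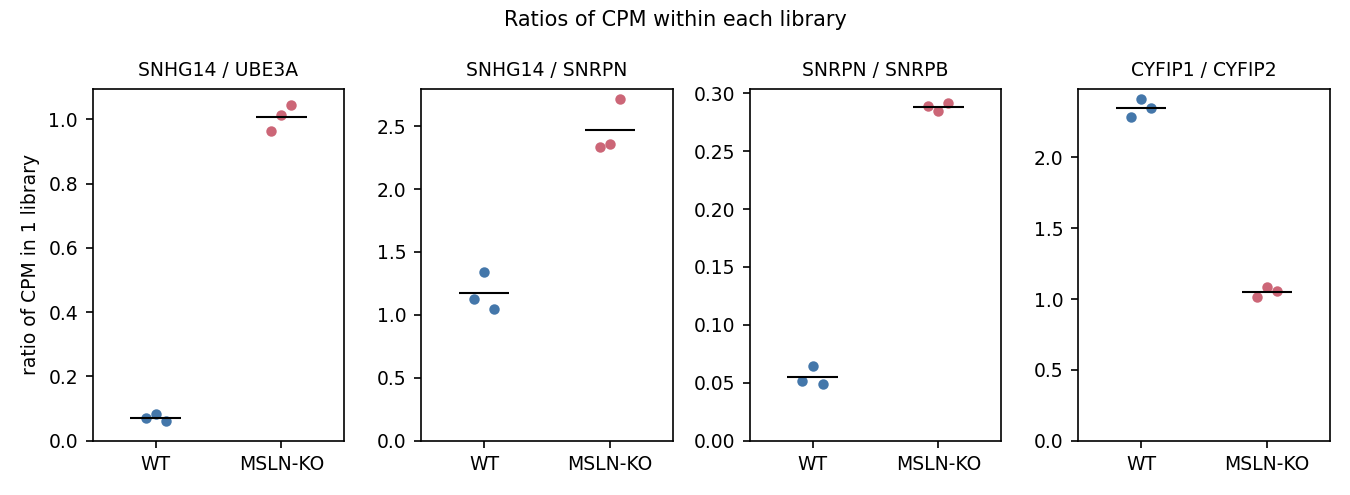
Ratio of the CPM of a pair of genes within each library, by genotype; points are libraries and bars are means of 3. The ratios to the left of CYFIP1 / CYFIP2 are higher in every MSLN-KO library than in any WT library, and CYFIP1 / CYFIP2 goes from 2.35 to 1.05.

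Chromosome 15 as a whole was lower in MSLN-KO, and the 6 lower genes are read against that. Of its 371 listed genes, 308 were called lower and 13 higher by limma's moderated test on log2(CPM + 1), two-sided, with Benjamini-Hochberg adjusted p under 0.05, and the median log2 change was -0.57. Over all 11363 genes the same rule called 45.7%, with 22.4% higher and 23.3% lower, and the median change was 0.01. It called all 8 genes, from which nothing is read because the contrast chose them. Genes outside chromosome 15 had a median change of 0.02. The median was -0.56 over the 177 genes from 30 to 65 Mb and -0.58 over the 169 genes from 65 Mb on, close to the -0.60 of the 25 genes before 30 Mb. Set against the chromosome's median, NIPA2 (-0.020), TUBGCP5 (-0.030) and UBE3A (0.065) were nearly level with it. NIPA1 (-0.21), HERC2 (-0.31) and CYFIP1 (-0.61) were further down, and SNRPN (2.69) and SNHG14 (3.77) far above. Ranked from the highest change of the 371, SNHG14 was the 2nd and SNRPN the 4th, while UBE3A was the 156th and CYFIP1 the 352nd. The others of the 7 chromosome 15 genes with the highest changes were ENSG00000261069 (3.33), CSPG4 (3.05), CHAC1 (1.90), CCPG1 (0.76) and BMF (0.64). Like ENSG00000261069, CSPG4 and CHAC1 were under 4.90 CPM in every WT library. They were thus listed only through their MSLN-KO libraries, which fixed their direction.

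**Figure D3:**
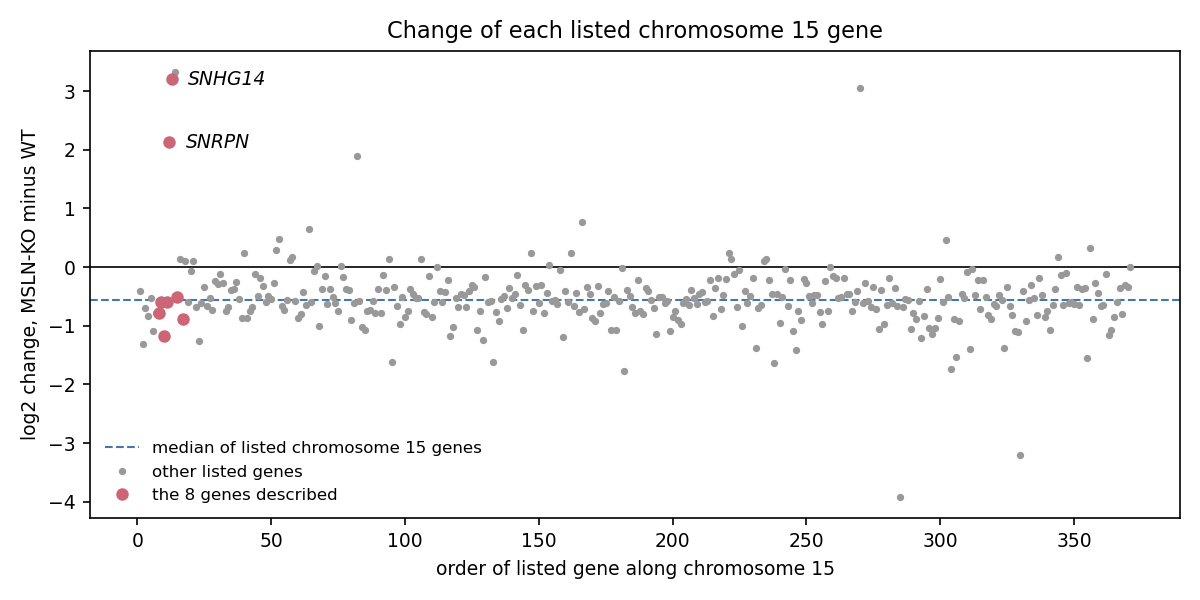
Log2 change (MSLN-KO minus WT) of each of the 371 listed chromosome 15 genes in their order along the chromosome. The 8 genes are coloured, SNRPN and SNHG14 are named, and the chromosome's median of -0.57 is dashed. Most genes lie near the dashed line, NIPA2, TUBGCP5 and UBE3A among them, and SNRPN and SNHG14 lie far above it.

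Before 33 Mb the table lists 43 genes of chromosome 15, of 475 annotated there. Of the 35 that are not among the 8 genes, 27 were called lower, 2 higher and 6 in neither direction, with a median log2 change of -0.54. From the centromere outwards, the listed genes went from lower to higher across the gap of 1784 kb between TUBGCP5 and SNRPN. On the other side there was no gap, since SNHG14, higher, runs into UBE3A, lower, over the 85735 shared bases. Among the listed genes from HERC2P3 to HERC2, those called higher were SNRPN, SNHG14 and the transcript inside it, which was listed only through its MSLN-KO libraries. Of 61 names listed by hand for 15q11 to q13 beside the 8 genes, 21 were in the table, 17 of them called lower and 1 higher.

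ATP10A, a phospholipid flippase that has been described as maternally expressed in brain, lies 238 kb beyond UBE3A. It was at 33.8, 34.8 and 33.03 CPM across the WT libraries and at 38.8, 40.1 and 33.5 CPM across the MSLN-KO libraries, and the groups overlapped. Its log2 change was 0.14 (limma adjusted p = 0.15), beside -0.50 for UBE3A and -0.88 for HERC2 on either side, and without MSLN-KO replicate 3 it was called higher, at 0.21. The other genes called in neither direction were RPL41P2, GOLGA8M, WHAMMP2, WHAMMP4 and ENSG00000260693, with changes from -0.24 to 0.10; GOLGA8M was called lower, at -0.20, without MSLN-KO replicate 3. GOLGA8O, of the golgin repeats that mark the region's breakpoints, was called higher at 0.25 (limma adjusted p = 0.011), and this call was lost without MSLN-KO replicate 1 (limma adjusted p = 0.064). The 27 lower genes ranged from KLF13 (-0.26), a zinc finger factor, to HERC2P2 (-1.31), a partial copy of HERC2.

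Beyond HERC2, APBA2, an adaptor of the amyloid precursor protein, went from 45.9 ± 6.15 to 18.6 ± 1.51 CPM (SD, n = 3 each), a log2 change of -1.25 (limma adjusted p = 3.5e-07). NSMCE3, a subunit of the SMC5/6 complex, had a change of -0.62, CHRNA7, the alpha 7 nicotinic receptor, -0.54, FAN1, a DNA repair nuclease, -0.40, and MTMR10, of the myotubularin family, -0.37, all called lower. Of the duplicated families before 33 Mb, 7 of 9 GOLGA8 genes, 3 of 3 HERC2P copies, 2 of 4 WHAMMP copies and 2 of 2 PDCD6IPP copies were called lower. Together these were 77.8% of 18 genes, beside 83.0% of all listed chromosome 15 genes. Beyond 33 Mb, GOLGA8B was called higher (0.48), with overlapping groups, and GOLGA8A (0.29) was not called. Members of these families share long near-identical stretches, and their separate values are uncertain. MKRN3, MAGEL2, NDN, NPAP1, SNURF, IPW, GABRA5, GABRG3 and OCA2 were looked up by symbol and were not listed, so no level can be given for them. LINC02256, listed without a position, had a change of -0.01.

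**Figure D4:**
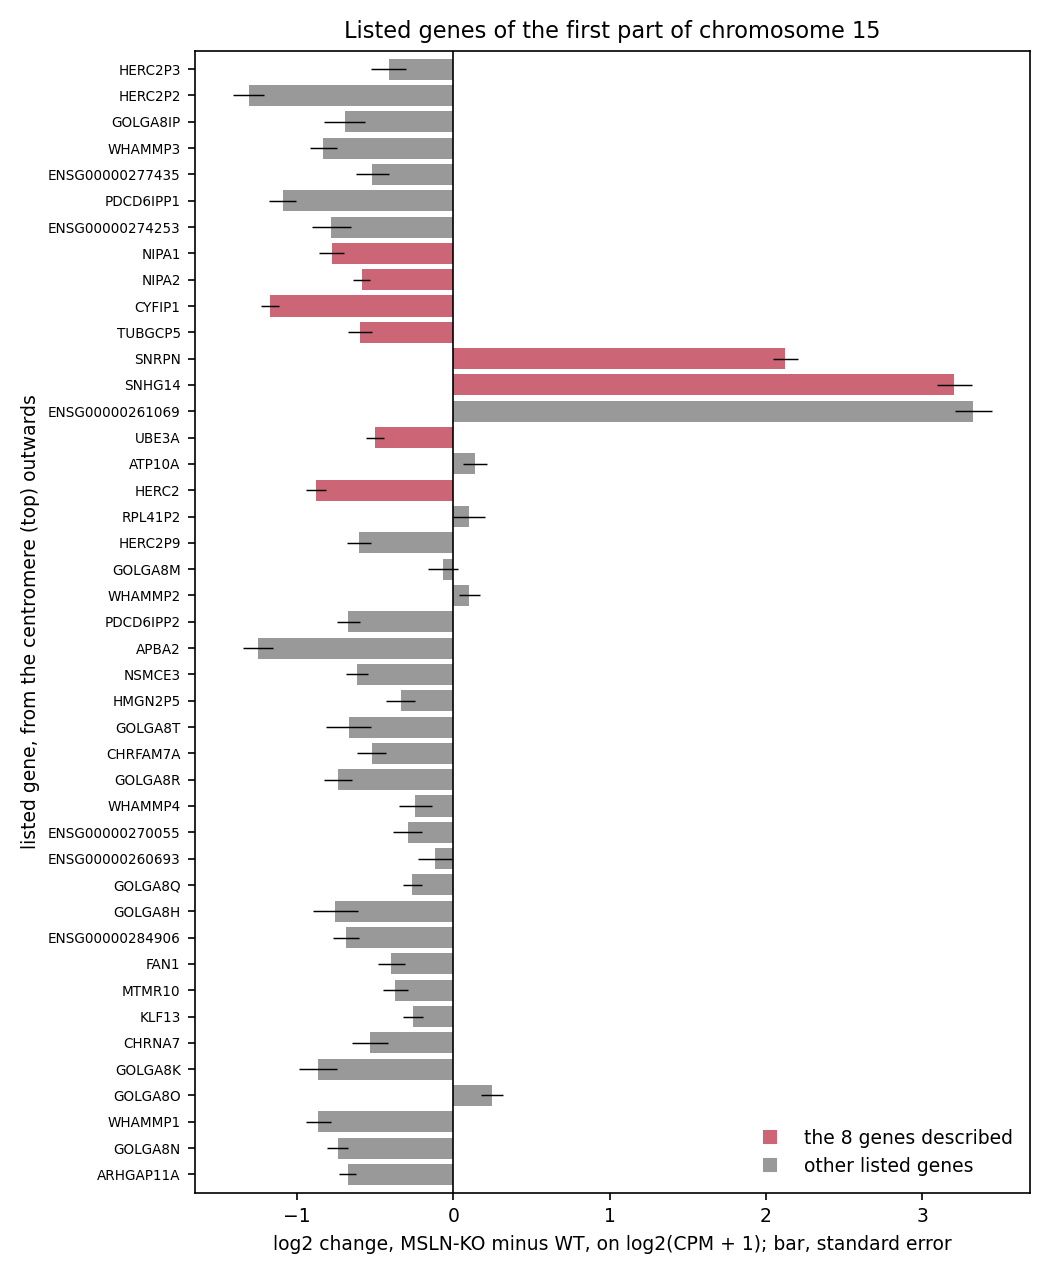
Log2 change (MSLN-KO minus WT, on log2(CPM + 1)) of the 43 listed genes of chromosome 15 before 33 Mb, in order from the centromere, with standard errors; the 8 genes are coloured. SNRPN, SNHG14 and ENSG00000261069 stand at 2.12 to 3.33 between neighbours at or below 0.14.

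The genes whose centred log2 profile over the 6 libraries was nearest to that of SNHG14, by Euclidean distance, were ZNF254 (0.32), ENSG00000261069 (0.37) and ZNF675 (0.38). ZNF254 and ZNF675 encode KRAB-type zinc finger proteins on chromosome 19. ZNF254 was at 0, 0.155 and 0 CPM across the WT libraries and at 8.51, 8.59 and 7.92 CPM across the MSLN-KO libraries, and ZNF675 was listed at 0 in all WT libraries and at 7.77, 7.72 and 8.39 CPM in MSLN-KO. Nearest to SNRPN were STC2 (0.17), a secreted glycoprotein hormone, and LGR4 (0.18), a receptor for R-spondins. STC2 went from 0.576 ± 0.142 to 6.47 ± 0.251 CPM and LGR4 from 4.09 ± 0.411 to 19.9 ± 1.40 CPM (SD, n = 3 each). These profiles are dominated by the step between the genotypes, and genes chosen this way share the direction and size of that step. ZNF254, ENSG00000261069, ZNF675, STC2 and LGR4 were under 4.90 CPM in every WT library. They were thus listed only through their MSLN-KO libraries, which fixed their direction.

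Other imprinted genes were examined as a list of 78 names outside the region, of which 29 were listed. Of these, 8 were called higher, 6 lower and 15 in neither direction, with a median log2 change of 0.11 beside 0.01 over all genes. The shares called higher and lower were 27.6% and 20.7%, near the 22.4% and 23.3% over all genes. GRB10, an adaptor that restrains insulin and growth factor receptors, went from 14.3 ± 0.674 to 46.1 ± 1.68 CPM (SD, n = 3 each), with a log2 change of 1.63 (limma adjusted p = 1.4e-09). INPP5F (0.46), a phosphoinositide phosphatase, and OSBPL5 (0.42), a lipid transfer protein, were also called higher, and TP73 (-0.78), a transcription factor, lower. The changes of the list ran from -0.78 to 1.63, and those of SNRPN (2.12) and SNHG14 (3.20) lay above that range.

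The genes that set or keep imprints and DNA methylation were mixed, with 5 of 29 listed called higher and 5 lower and a median change of -0.02. Each share was 17.2%, beside 22.4% higher and 23.3% lower over all genes. ZFP57, the KRAB zinc finger protein that protects methylated imprinting centres in the early embryo, went from 15.1 ± 2.14 to 8.59 ± 0.221 CPM (SD, n = 3 each), a change of -0.74 (limma adjusted p = 7.0e-05). TET2, an enzyme that oxidises 5-methylcytosine, went from 283 ± 27.9 to 169 ± 6.82 CPM (SD, n = 3 each), a change of -0.73 (limma adjusted p = 2.3e-06), and TET1, its relative, changed by -0.53. ATF7IP, a cofactor of the histone methyltransferase SETDB1, rose by 0.53. DNMT1, the maintenance methyltransferase (0.11, limma adjusted p = 0.12), TRIM28, the corepressor that ZFP57 recruits (0.09, limma adjusted p = 0.43), and ZNF445, another imprint-protecting zinc finger protein (0.11, limma adjusted p = 0.24), were not called. DNMT1 was called higher, at 0.16, without MSLN-KO replicate 3 (limma adjusted p = 0.029) and, at 0.15, with columns rescaled to equal totals (limma adjusted p = 0.043).

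SNHG14 was set beside 23 other listed hosts of small nucleolar RNAs, of 35 named. Of these hosts, 13 were called higher and 1, DANCR, lower, with a median log2 change of 0.39. The shares were 56.5% higher, beside 22.4% over all genes, and 4.35% lower, beside 23.3%. SNHG32 went from 166 ± 14.4 to 305 ± 6.16 CPM and GAS5 from 187 ± 17.9 to 335 ± 25.4 CPM (SD, n = 3 each), changes of 0.88 and 0.84. SNHG16 (0.73) and ZFAS1 (0.67) followed. The change of SNHG14, 3.20, lay outside the range of the other hosts, -0.17 to 0.88. DANCR is named because it was the only host called lower, and its call was lost when any 1 library was left out.

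SNRPN was set beside 33 genes, all listed, of the small nuclear ribonucleoproteins (snRNPs): the Sm and LSm ring proteins, proteins of single particles such as SNRNP70 and SNRPC, and factors that assemble or methylate the rings, such as SMN1, the GEMIN genes and PRMT5. Of these, 11 were called lower and 1 higher, and the median log2 change was -0.09. Lower calls made up 33.3% and higher calls 3.03%, beside 23.3% and 22.4% over all genes. LSM8 (0.83) was the one that rose, while LSM3 (-0.43), SNRPF (-0.39) and SNRPG (-0.37) fell. SNRPB went from 156 ± 12.2 to 140.2 ± 4.51 CPM (SD, n = 3 each) with overlapping groups, a change of -0.15 that was not called (limma adjusted p = 0.064). SNRPB was called lower, at -0.22, without WT replicate 2 (limma adjusted p = 0.0067) and, at -0.16, with scaling on genes outside chromosome 15 (limma adjusted p = 0.0498). The change of SNRPN, 2.12, lay outside the range of the list, -0.43 to 0.83.

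The partners of CYFIP1 lie on other chromosomes and showed small changes. Of 8 listed WAVE complex genes, ABI2 (0.45) was called higher, and WASF2 (-0.20) and RAC1 (-0.14) lower. Neither of these lower genes was called without WT replicate 2 or MSLN-KO replicates 1 or 3, with changes of -0.15 to -0.18 for WASF2 and -0.11 to -0.15 for RAC1, and RAC1 was not called without WT replicates 1 or 3 either. Without the variance trend neither was called (limma adjusted p = 0.052 for WASF2 and 0.078 for RAC1), and RAC1 was also not called with the replicate block (limma adjusted p = 0.060) or with rescaled columns (limma adjusted p = 0.0999). CYFIP2, the paralog of CYFIP1, was at 45.4 ± 0.789 CPM for WT and 44.4 ± 0.769 CPM for MSLN-KO (SD, n = 3 each), a change of -0.03 (limma adjusted p = 0.68). CYFIP1 was therefore 2.35 ± 0.0633 times CYFIP2 in WT and 1.05 ± 0.0338 times in MSLN-KO. Of 6 genes of the FMRP translation repressor complex, NUFIP2 was called higher, at 0.18, with overlapping groups; it is named because it was the only one called, and of the 6 libraries only the removal of WT replicate 2 left that call standing.

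Beside TUBGCP5, the gamma-tubulin ring complex and its attachment factors comprised 21 listed genes, with 5 called higher, 5 lower and a median log2 change of 0.05. Each share was 23.8%, near the 22.4% higher and 23.3% lower over all genes. Both other chromosome 15 genes of this list were lower, with changes near that of TUBGCP5 itself. They were TUBGCP4 (-0.59), a fellow scaffold subunit, and HAUS2 (-0.52), of the augmin complex. The 19 elsewhere had 5 higher and 3 lower, among them HAUS6 (0.35) and ACTB (-0.37), and TUBG1, gamma-tubulin, was not called (-0.05, limma adjusted p = 0.67). For NIPA1 and NIPA2, 11 other magnesium transport genes were listed, 3 of them higher (27.3%) and 2 lower (18.2%), with a median of 0.15. TRPM7 (-0.32), a channel with a kinase domain and the only one of them on chromosome 15, and SLC41A1 (-0.32) were lower, and MRS2 (0.25), the mitochondrial magnesium channel, was higher, a call that was lost without MSLN-KO replicate 3 (0.16) and without WT replicates 1 (0.24) or 2 (0.23).

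Of 20 other listed HECT ubiquitin ligases, 3 were called higher and 6 lower, with a median log2 change of 0.08. The 18 outside chromosome 15 had 3 higher and 4 lower, beside 22.4% higher and 23.3% lower over all genes. NEDD4 (-0.70) and HERC1 (-0.41), both on chromosome 15, and NEDD4L (-0.56) were lower, and UBE3C (0.38) was higher. UBE3B, a close relative of UBE3A, was at 49.1 ± 1.14 and 51.5 ± 0.483 CPM (SD, n = 3 each) and was not called (0.07, limma adjusted p = 0.36). UBE3A was 2.86 ± 0.203 times UBE3B in WT and 1.92 ± 0.0836 times in MSLN-KO. Of 22 partners and substrates of UBE3A and HERC2, 9 were called lower (40.9%, beside 23.3% of all genes) and 1 higher. Of the 19 outside chromosome 15, 6 were lower and 1 higher. The 3 on chromosome 15, PML (-0.75), MAPK6 (-0.63) and HERC1 (-0.41), were all lower, as was LRRK2 (-0.63) on chromosome 12.

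**Figure D5:**
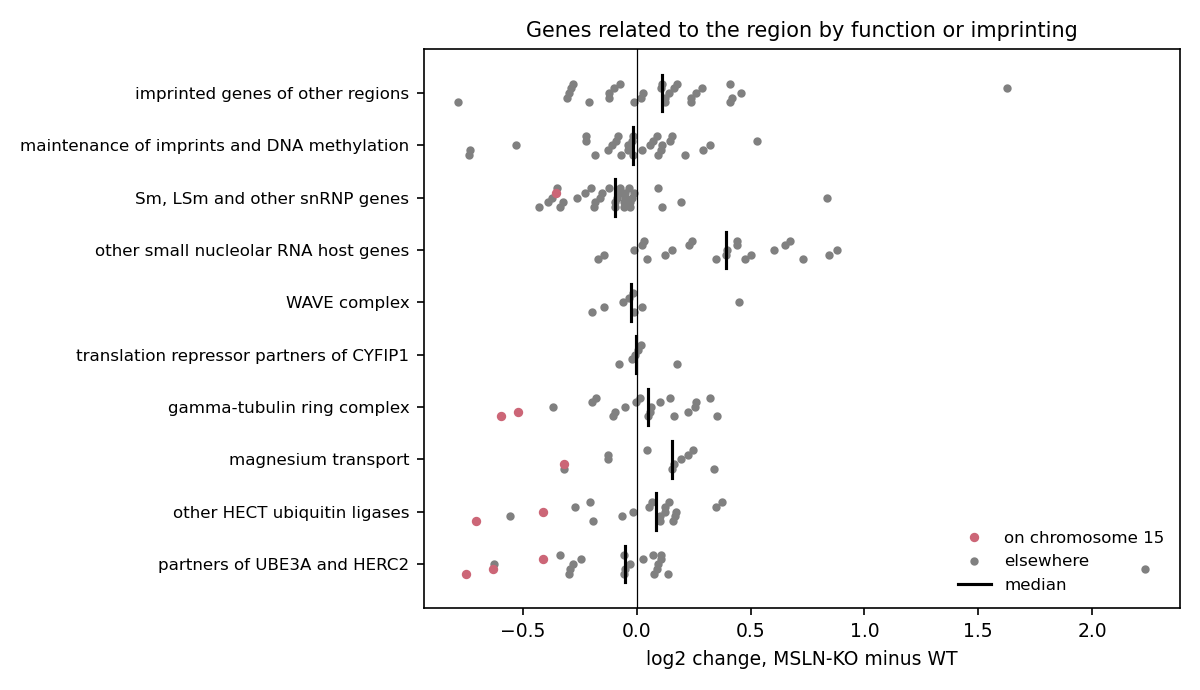
Log2 change (MSLN-KO minus WT) of each listed gene in 10 lists related to the 8 genes, with a bar at each list's median; genes on chromosome 15 are coloured. The coloured points all lie below 0, at -0.32 to -0.75, and the highest median is 0.39, for the other small nucleolar RNA hosts.

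Depth and labels were checked once for the whole table. The values stand for 23665824 to 30804446 reads in listed genes per library. MSLN was at 153, 123 and 106 CPM across the WT libraries and at 45.7, 46.9 and 45.3 CPM across the MSLN-KO libraries, 36.1% of WT (log2 change -1.43, limma adjusted p = 1.5e-07), and the labels do not give the edited site. All 16 monocytic leukaemia markers were listed, and their summed level was 19033 to 19785 CPM over the WT libraries and 9224 to 9590 CPM over the MSLN-KO libraries, with 12 of 16 lower, 2 higher and a median log2 change of -0.38. Most of that sum was LYZ, lysozyme, which went from 14540 ± 317 to 6081 ± 320 CPM (SD, n = 3 each). The part of these markers in the values of the 8 genes was not tested. None of 15 neuronal markers was listed, and of the lymphoid, erythroid or megakaryocytic, and epithelial, mesothelial or stromal markers only 1 of 9, 1 of 8 and 2 of 13 were. In bulk RNA, fewer cells reading a gene and less RNA of it per cell cannot be told apart.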

How the data were processed

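The deposited table gives CPM values (read counts per library size) that the authors scaled by the TMM method. STAR, featureCounts and edgeR with GRCh38 (hg38) are named per the submitters' processing notes; for annotation release, filters and strandedness, nothing is given in the sources used here. Column totals were 967718 to 1009572 CPM. Of 11363 Ensembl identifiers, 11354 matched a symbol and 11314 a position in GENCODE release 29, whose merged exons gave CPM per kb.

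The 2 groups of 3 libraries, taken from the titles, were compared with limma 3.58.1 (R 4.3.3) on log2(CPM + 1), with a variance trend, two-sided, over all genes, with a call below 0.05 after Benjamini-Hochberg adjustment; the code was tested on simulated data. p-values reflect library-to-library spread alone. The members and lists were chosen with earlier results of these data known. Named were every member, other listed genes of the region, up to 4 called genes of each list with the largest changes and separate groups, direct counterparts, and the 3 nearest profiles of SNHG14 and SNRPN; a gene that this rule also names is not reported here. All values were whole multiples of 1 read's worth within 0.01 reads, which gave the depth, but the table holds CPM rather than counts and the planned count tests were not run. Alternatives covered the pseudocount (0.5 and 5), a minimum mean of 5 CPM, other scalings, the chromosome 15 median, the trend, a replicate block and leaving out each library. Promoter windows came from RefSeq (GRCh38.p14).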

Additional observations from a re-analysis of the deposited data

How the results depend on the processing

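Each of the 8 genes kept its direction under every alternative that was run, except UBE3A against the chromosome 15 median. Less that median, the log2 changes were 0.065 for UBE3A (reversed), -0.020 for NIPA2, -0.030 for TUBGCP5, -0.21 for NIPA1, -0.31 for HERC2, -0.61 for CYFIP1, 2.69 for SNRPN and 3.77 for SNHG14. With a pseudocount of 5 CPM they were 1.75 for SNRPN, 2.81 for SNHG14, -1.11 for CYFIP1 and -0.51 for TUBGCP5, smaller by construction. Leaving out 1 library at a time gave 3.08 to 3.35 for SNHG14, 2.07 to 2.17 for SNRPN, -0.53 to -0.46 for UBE3A and -1.20 to -1.14 for CYFIP1. Over all genes, the count called higher was 1947 to 2486 and lower 2139 to 2628 with 1 library left out, 2942 and 2278 with columns rescaled to equal totals, and 2425 and 2764 with scaling on genes outside chromosome 15. With the replicate number as a block the counts were 2413 higher and 2533 lower. Same-numbered libraries deviated with r = 0.19, -0.17 and -0.09, and differently numbered ones with r from -0.25 to 0.30. No pairing by number was seen, but this cannot exclude one, since deviations from the mean of 3 libraries offset each other. The planned count tests were not run, because the table holds CPM. With 3 libraries a group no outlier check applied.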
